A study of Mus musculus with 12 samples.

Results

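The genes described here are Cdkn1a, 4 further inhibitors of cyclin-dependent kinases (CDKs) and the 3 D-type cyclins, 8 genes in all of 14860 tested, read in epididymal white adipose tissue (eWAT) of mice kept warm or adapted to cold. They were chosen by gene symbol in the array annotation, and the rule kept the brightest row of each gene. Each of the 8 had a single row with 1 symbol, so brightness chose nothing here. All 8 lay above the background level of the arrays on all 12 arrays. Ccnd3 had 1 further row that it shares with another symbol, which was left out.

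The mice were C57BL/6J males, 7 to 8 weeks old when purchased. A thermoneutral control was housed at 30°C. The cold groups were named 4°C, –10°C, and, for the coldest, –10°C/–20°C, which the labels shorten to –20°C, and each of the 4 groups had 3 arrays. The series text gives 5 weeks of exposure, a count that for the cold groups takes in the time at 4°C. By the study's methods, cold groups first spent 1 week at 18°C and 1 week at 4°C, after which the 2 subzero groups were taken down stepwise and held for 3 weeks at their final temperature, which alternated between –20°C and –10°C in the coldest group. RNA of whole fat pads was hybridized to Affymetrix Mouse Exon 1.0 ST arrays, and the values are log2 signals. Arrays of a group are labelled as biological replicates, but no mouse or litter is named, and the p-values therefore cover only the spread among arrays, which may be technical. In whole tissue, fewer cells of a type and less RNA per cell cannot be told apart.

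D-type cyclins (Ccnd1, Ccnd2, Ccnd3) bind and switch on the kinases Cdk4 and Cdk6, which phosphorylate the retinoblastoma family and thereby release E2F factors that drive the genes of DNA replication. The Cip/Kip inhibitors p21 (Cdkn1a), p27 (Cdkn1b), and p57 (Cdkn1c) act on cyclin-CDK complexes broadly, and the INK4 inhibitors p15 (Cdkn2b) and p18 (Cdkn2c) bind Cdk4 and Cdk6 and keep D cyclins away from them. Mature adipocytes do not divide, and in cultured preadipocytes several of these inhibitors rise as the cells leave the cell cycle. Cdkn1a is also a textbook target of p53, of FoxO factors, and of glucocorticoids.

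Promoter windows are shown for the 3 inhibitors whose values differed most plainly between cold groups, to set the known promoter elements of each beside its values. RefSeq windows of GRCm38.p6, from 250 bases before to 50 bases after an annotated start, were found for 5 of the 8 genes, 8 windows in all, and 5 are printed. Cdkn1c, Ccnd1, and Ccnd2 are named only. Capitals mark matches, on either strand, to the GC box GGGCGG, the E-box CACGTG, the cyclic AMP response element TGACGTCA, the TATA letters TATAA, and the p53 half-site of 10 bases. The half-site was added after the sequence of Cdkn1a had been seen, and no matches of different motifs overlapped.
Cdkn1a upstream start, chr17:29090729-29091028, plus strand: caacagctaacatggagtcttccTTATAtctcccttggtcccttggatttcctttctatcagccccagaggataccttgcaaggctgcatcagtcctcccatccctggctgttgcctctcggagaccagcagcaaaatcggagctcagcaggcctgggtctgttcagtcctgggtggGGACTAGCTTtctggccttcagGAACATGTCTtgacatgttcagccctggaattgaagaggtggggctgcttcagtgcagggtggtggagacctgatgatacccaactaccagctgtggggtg
Cdkn1a downstream start, chr17:29093519-29093818, plus strand: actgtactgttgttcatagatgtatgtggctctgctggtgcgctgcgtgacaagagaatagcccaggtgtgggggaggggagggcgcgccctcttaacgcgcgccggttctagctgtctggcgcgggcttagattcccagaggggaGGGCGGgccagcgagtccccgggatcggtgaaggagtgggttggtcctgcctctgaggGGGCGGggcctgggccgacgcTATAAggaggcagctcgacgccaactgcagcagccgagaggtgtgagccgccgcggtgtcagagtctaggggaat
Cdkn2b, chr4:89310983-89311282, minus strand: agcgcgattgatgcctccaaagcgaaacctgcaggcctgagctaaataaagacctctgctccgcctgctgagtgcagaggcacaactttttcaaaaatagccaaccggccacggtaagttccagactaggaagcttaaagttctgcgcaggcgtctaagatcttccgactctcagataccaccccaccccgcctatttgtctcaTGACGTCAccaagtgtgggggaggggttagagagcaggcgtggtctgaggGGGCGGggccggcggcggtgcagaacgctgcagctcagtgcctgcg
Cdkn2c upstream start, chr4:109666707-109667006, minus strand: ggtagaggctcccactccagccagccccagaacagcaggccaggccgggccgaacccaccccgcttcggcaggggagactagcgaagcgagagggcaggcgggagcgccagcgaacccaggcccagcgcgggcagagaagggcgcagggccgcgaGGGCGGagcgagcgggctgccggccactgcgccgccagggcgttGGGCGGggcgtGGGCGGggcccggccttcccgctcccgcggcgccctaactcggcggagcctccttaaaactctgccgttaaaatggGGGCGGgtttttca
Cdkn2c downstream start, chr4:109665323-109665622, minus strand: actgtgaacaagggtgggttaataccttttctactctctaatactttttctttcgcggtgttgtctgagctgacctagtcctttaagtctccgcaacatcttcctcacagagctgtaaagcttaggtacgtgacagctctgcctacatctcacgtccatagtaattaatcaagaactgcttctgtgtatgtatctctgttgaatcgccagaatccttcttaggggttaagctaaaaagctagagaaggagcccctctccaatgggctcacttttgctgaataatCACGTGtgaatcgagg

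The upstream window of Cdkn1a held the p53 half-site from −73 to −64 and from −51 to −42, with the annotated start counted as 0, a motif found in 8.36% of 32851 windows of the same length. The full p53 consensus, with a pair of adjoining half-sites, was matched letter for letter by 0 of the members' windows and by 3 windows in all. The search allowed no mismatch. In the upstream window of Cdkn1a, the bases directly after the half-site from −51 to −42 (tgacatgttc) departed from a further half-site only at their first base. The downstream window of Cdkn1a held 2 GC boxes and the TATA letters from −25 to −21. These letters occurred in 24.9% of all windows and a GC box in 35.7%. Cdkn2b held the cyclic AMP response element from −46 to −39, which 1.79% of windows hold, and 1 GC box. The upstream window of Cdkn2c held 4 GC boxes and a GC content of 73.3%, against 44% in its downstream window, where an E-box, found in 7.15% of windows, followed the start. A match is a description of letters, and binding was not measured here.

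Cdkn1a, which encodes p21, was lowest at 4°C, and its values in the coldest group overlapped those of 30°C. Its log2 values were 8.76, 8.55, and 8.54 at 30°C, 6.44, 6.59, and 6.61 at 4°C, 7.91, 7.86, and 6.89 at –10°C, and 8.63, 8.94, and 8.79 with –10°C/–20°C. The 4°C arrays lay below every other array of the gene, the –10°C arrays lay between, and those of 30°C and –10°C/–20°C overlapped. Group means were 8.62 ± 0.13, 6.54 ± 0.09, 7.55 ± 0.57, and 8.79 ± 0.16 (SD, n = 3 each) in the order of falling temperature.

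At 4°C, Cdkn1a was 4.22-fold lower than at 30°C (log2 fold change −2.08, SE 0.22, limma adjusted p = 0.0012 over all genes). It was 2.09-fold lower at –10°C than at 30°C (−1.07, adjusted p = 0.013). With –10°C/–20°C the difference from 30°C was 0.17 on the log2 scale, with a 95% interval from −0.32 to 0.66 and an adjusted p of 0.73. Against 4°C, Cdkn1a was 4.73-fold higher with –10°C/–20°C (2.24, adjusted p = 0.00045), and against –10°C it was 2.35-fold higher (1.23, adjusted p = 0.0092). Of the –10°C arrays, replicate 3 was at 6.89, near those of 4°C, and the other two were at 7.91 and 7.86. With all arrays, –10°C exceeded 4°C by 1.01 without passing the test (adjusted p = 0.23), and without –10°C replicate 3 by 1.34 with an adjusted p of 0.0075. The call of –10°C against 30°C was lost without 30°C replicate 1 (adjusted p = 0.056), with only the arrays of both groups in the fit (adjusted p = 0.067), and with array-name form as a block (adjusted p = 0.098). With only the arrays compared, the difference between –10°C/–20°C and –10°C had an adjusted p of 0.052. The methods' t-test with adjustment lost the calls at 4°C and –10°C against 30°C and that of –10°C/–20°C against –10°C. Over all alternatives, their adjusted p reached 0.1, 0.25, and 0.2. The call of –10°C/–20°C against 4°C held in every alternative.

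Arrays of 30°C and 4°C carried names of 2 forms in the study's supplementary table. Replicates 1 and 2 of both groups shared one form, in which Cdkn1a read 6.44 and 6.59 at 4°C, against 8.76 and 8.55 at 30°C. In the other form, which also holds all arrays of the subzero groups, it read 6.61 at 4°C, against 8.54 at 30°C.

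**Figure D1:**
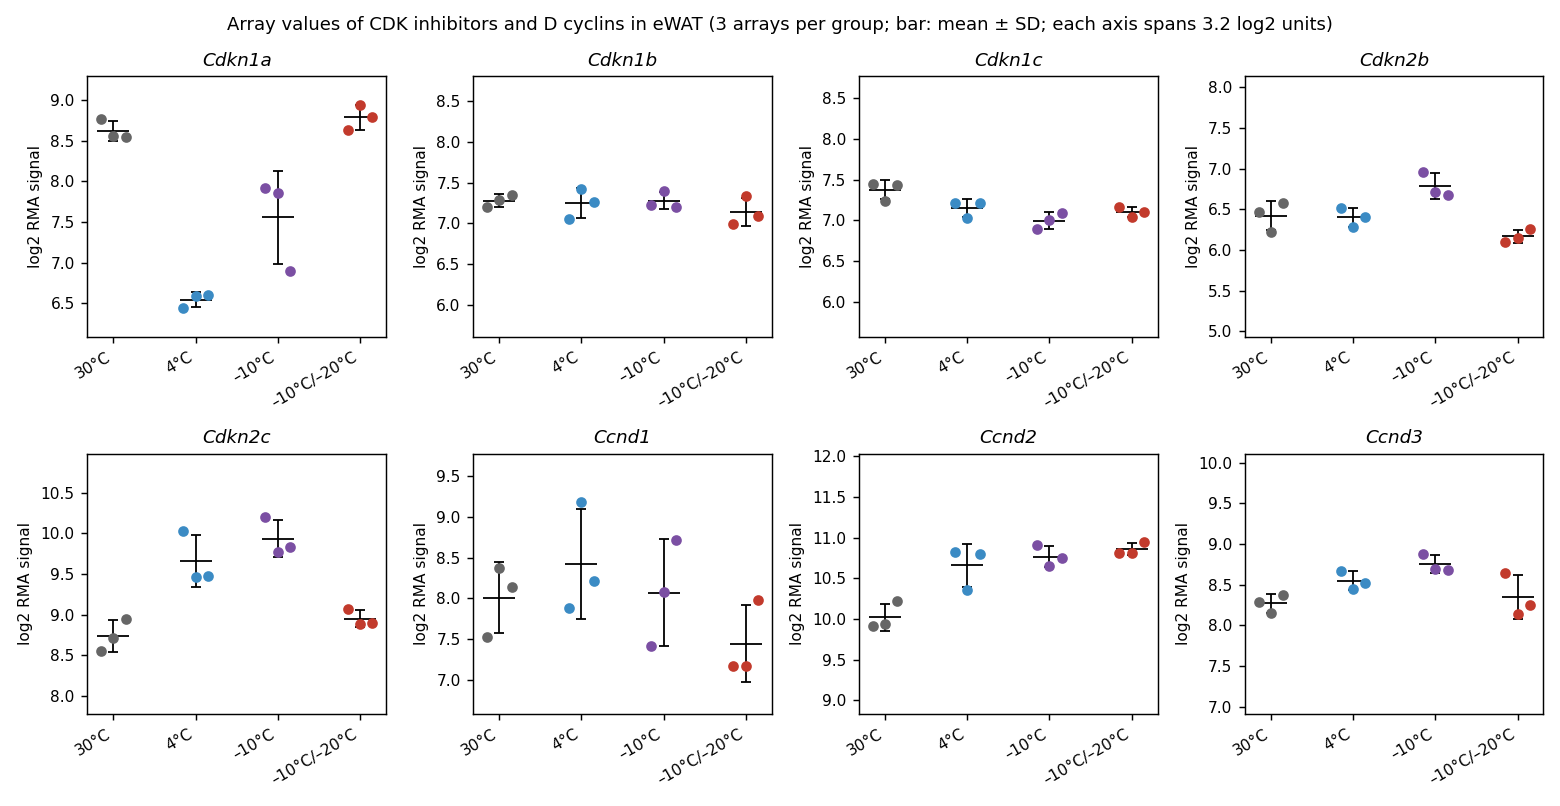
Log2 RMA signal of each of the 8 genes on the 12 arrays by temperature group, with the bar and whiskers at the mean ± SD of 3 arrays and each vertical axis spanning the same number of log2 units. The 4°C arrays of Cdkn1a lay between 6.44 and 6.61, below all others, whereas those of Cdkn2c lay at 9.47 or above.

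Cdkn1b, which encodes p27, stayed within a narrow band. Its values ran from 6.99 to 7.42 over all 12 arrays, and the groups overlapped in all 6 comparisons. Differences against 30°C were −0.03 at 4°C, −0.002 at –10°C, and −0.14 with –10°C/–20°C, and the interval of the last reached from −0.40 to 0.12. None passed the test in limma, and the sign of these small values changed with the processing.

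Cdkn1c, which encodes p57, was somewhat lower in cold. It read 7.45, 7.24, and 7.44 at 30°C, 7.21, 7.03, and 7.21 at 4°C, 6.89, 7.01, and 7.10 at –10°C, and 7.16, 7.04, and 7.11 with –10°C/–20°C. In each cold group the 3 arrays lay below those of 30°C. The fall passed the test at –10°C only (−0.38, SE 0.10, adjusted p = 0.032), with adjusted p-values of 0.30 at 4°C and 0.072 with –10°C/–20°C. The –10°C call was lost without 30°C replicate 1 or 3 or –10°C replicate 1 or 2 (adjusted p = 0.078 to 0.13), and with arrays centred on their medians (adjusted p = 0.11). Differences among the cold groups were at most 0.15 in size, and none passed.

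Cdkn2b, which encodes p15, had its highest group mean at –10°C and its lowest with –10°C/–20°C. Its difference between –10°C and 4°C did not pass the test (0.38, limma adjusted p = 0.45). It read 6.47, 6.22, and 6.57 at 30°C, 6.52, 6.28, and 6.40 at 4°C, 6.96, 6.71, and 6.67 at –10°C, and 6.10, 6.14, and 6.26 with –10°C/–20°C. The coldest arrays lay below every –10°C and every 4°C array, and each –10°C array lay above those of the other groups. With –10°C/–20°C, Cdkn2b was 1.53-fold lower than at –10°C (log2 fold change −0.62, SE 0.12, adjusted p = 0.011). This call was lost when arrays were centred on their medians (−0.44, adjusted p = 0.12), when quantile normalization was repeated (−0.44, adjusted p = 0.10), and without –10°C replicate 1 (−0.52, adjusted p = 0.055). Against 30°C, the difference was 0.36 at –10°C (adjusted p = 0.091) and −0.25 with –10°C/–20°C (adjusted p = 0.18).

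Cdkn2c, which encodes p18, ran largely opposite to Cdkn1a and had its highest group mean at –10°C. There it overlapped 4°C and did not pass against it (0.28, limma adjusted p = 0.86). It read 8.55, 8.71, and 8.94 at 30°C, 10.02, 9.47, and 9.48 at 4°C, 10.20, 9.77, and 9.83 at –10°C, and 9.07, 8.89, and 8.90 with –10°C/–20°C. Every array of 4°C and –10°C lay above every array of 30°C and –10°C/–20°C, and the last 2 groups overlapped.

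Compared with 30°C, Cdkn2c was 1.90-fold higher at 4°C (adjusted p = 0.017; log2 fold change 0.92 with SE 0.17) and 2.30-fold higher at –10°C (1.20, adjusted p = 0.0023). With –10°C/–20°C it differed from 30°C by 0.22 (95% interval −0.16 to 0.59, adjusted p = 0.48). It was 1.98-fold lower with –10°C/–20°C than at –10°C (−0.98, adjusted p = 0.0075) and 1.63-fold lower than at 4°C (−0.70, adjusted p = 0.024). The 4°C call was lost without 30°C replicate 1 or 2 or 4°C replicate 1, at adjusted p-values of 0.06 to 0.073. It was also lost with only the arrays compared and with the methods' t-test (adjusted p up to 0.31 over all alternatives). The difference between –10°C/–20°C and 4°C was lost without 4°C replicate 1 (−0.52, adjusted p = 0.082) or –10°C/–20°C replicate 2 or 3 (adjusted p = 0.086 and 0.078), and with centred arrays (−0.53, adjusted p = 0.11). Only the arrays compared, array-name form as a block, and the methods' t-test lost it too (adjusted p up to 0.19 over all alternatives).

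Ccnd1, the D cyclin most responsive to growth factors, varied most within groups. It read 7.52, 8.37, and 8.14 at 30°C, 7.88, 9.19, and 8.21 at 4°C, 7.41, 8.08, and 8.72 at –10°C, and 7.17, 7.17, and 7.99 with –10°C/–20°C. The groups overlapped in all 6 comparisons and none passed the test. The difference between –10°C/–20°C and 4°C was −0.98, with a 95% interval from −1.87 to −0.10 and an adjusted p of 0.17. Its SE was 0.40 in each comparison, against 0.10 to 0.22 for the other members.

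Ccnd2 was higher in all 3 cold groups than at 30°C, and it was the 1 member past the test with –10°C/–20°C against 30°C. It read 9.92, 9.93, and 10.22 at 30°C, 10.82, 10.36, and 10.80 at 4°C, 10.91, 10.65, and 10.75 at –10°C, and 10.82, 10.82, and 10.94 with –10°C/–20°C. Each cold array lay above each 30°C array. Ccnd2 was 1.55-fold higher at 4°C (0.64, SE 0.14, adjusted p = 0.031), 1.68-fold higher at –10°C (0.74, adjusted p = 0.0071), and 1.78-fold higher with –10°C/–20°C (0.84, adjusted p = 0.0015). Differences among the cold groups were 0.20 or smaller and none passed. The coldest group's call held in every alternative, whereas the 4°C call was lost without 30°C replicate 1 or 2, 4°C replicate 1 or 3, or –10°C/–20°C replicate 2 (adjusted p = 0.051 to 0.15), and with centred arrays (adjusted p = 0.099). With array-name form as a block, Ccnd2 at –10°C exceeded 30°C by 0.58 (adjusted p = 0.084).

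Ccnd3, which in cultured preadipocytes acts with Cdk6 on PPARγ, had its highest group mean at –10°C. Its difference there from 4°C did not pass the test (0.20, limma adjusted p = 0.88). It read 8.29, 8.15, and 8.38 at 30°C, 8.67, 8.44, and 8.52 at 4°C, 8.88, 8.69, and 8.68 at –10°C, and 8.65, 8.14, and 8.26 with –10°C/–20°C. The coldest group was split, with replicate 1 at the level of the 4°C arrays and the other two near those of 30°C. Ccnd3 was 1.39-fold higher at –10°C than at 30°C (0.48, SE 0.13), at an adjusted p of 0.049 that passed narrowly. It was lost without any 1 of 10 arrays, all those of 30°C, 4°C, and –10°C and replicate 3 of –10°C/–20°C (adjusted p = 0.055 to 0.17). With –10°C/–20°C, Ccnd3 was 0.40 lower than at –10°C (adjusted p = 0.097), and without –10°C/–20°C replicate 1 the difference was −0.55 (adjusted p = 0.016). With the replicate number as a block its adjusted p was 0.043.

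Counted over the 8 genes, 3 passed the test at 4°C against 30°C (Cdkn1a lower, Cdkn2c and Ccnd2 higher), where 3.04% of all genes tested did. At –10°C against 30°C, 5 passed (Cdkn1a and Cdkn1c lower, Cdkn2c, Ccnd2, and Ccnd3 higher), against 8.34% of all genes. With –10°C/–20°C against 30°C, 1 of 8 passed although 18.2% of all genes did, a share close to the background. The 3 comparisons share the 30°C arrays. With –10°C/–20°C, 2 differed from 4°C (9.77% of all genes) and 3 from –10°C (7.16%). At –10°C against 4°C, 0 of 8 passed in limma, where 6 genes in all (0.0404%) did. At an unadjusted p under 0.05, limma called 2 members there (Cdkn1a and Cdkn2b), the methods' t-test also 2, and 0 after adjustment. The moderated F-test over the 4 groups called 4 members, Cdkn1a, Cdkn2b, Cdkn2c, and Ccnd2, against 17.1% of all genes. The count at 4°C was 1 without 30°C replicate 1 or 2 or 4°C replicate 1, and that at –10°C was 2 without 30°C replicate 1. It was 3 when 30°C replicate 3 or either of –10°C replicates 1 and 2 was left out. That of –10°C/–20°C against 4°C was 1 without 4°C replicate 1 or –10°C/–20°C replicate 2 or 3, and that of –10°C against 4°C was 1 without –10°C replicate 3. Since the set was proposed with results of these arrays known, these counts are descriptions.

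**Figure D2:**
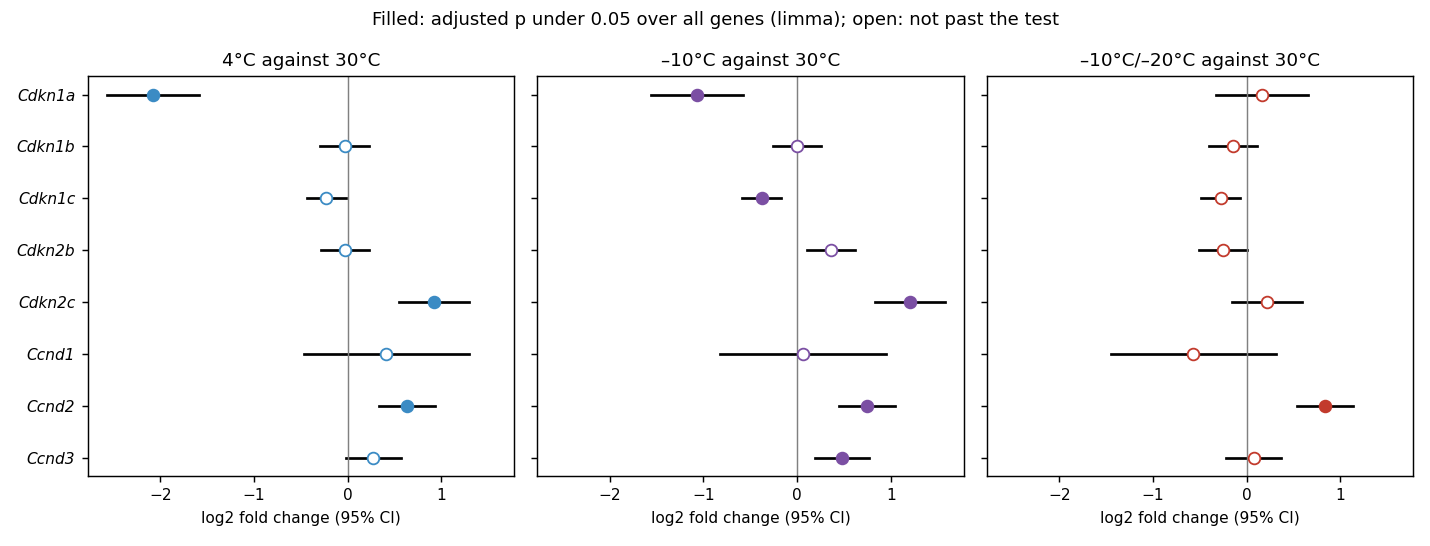
Log2 fold change of the 8 genes in each cold group against 30°C, 1 panel for each group, with 95% intervals from limma and filled points for an adjusted p under 0.05. Cdkn1a lay at −2.08, −1.07, and 0.17 in the 3 panels, while Ccnd2 lay at 0.64, 0.74, and 0.84.

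Both shapes were measured over all genes as a description. In 172 genes (1.16% of all) every 4°C array lay below all those of 30°C and –10°C/–20°C, and Cdkn1a was the 1 member among them. In 327 genes (2.2%) every 4°C array lay above both, and Cdkn2c was the 1 member. Genes that were lower at 4°C than at 30°C and higher with –10°C/–20°C than at 4°C, both past the test, numbered 15 (0.101%), and Cdkn1a had the largest fall at 4°C among them. Chosen after their values were seen, the amino acid transporter subunits Slc7a8 and Slc3a2 and the FGF21 co-receptor Klb were also of this shape. Slc7a8 read 9.88, 9.00, and 9.20 at 30°C, 7.77, 8.01, and 7.64 at 4°C, 7.75, 7.83, and 7.72 at –10°C, and 9.80, 10.82, and 10.23 with –10°C/–20°C. Its low values thus extended to –10°C, where Cdkn1a was above its 4°C arrays. The reverse shape was called for 47 genes (0.316%), Cdkn2c among them.

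Among 10771 other genes above background on at least 3 arrays, those whose 12 values ran most like Cdkn1a were Cyp2d22, a cytochrome P450 (Pearson r = 0.95), Pdk4, which inhibits the pyruvate dehydrogenase complex (0.90), the alcohol dehydrogenase Adh1 (0.89), Gtpbp6 (0.87), and the transcriptional repressor Nfil3 (0.87). The 12 points share tissue, platform, and group structure, so the coefficients are descriptions. Pdk4 read 9.89, 9.69, and 9.93 at 30°C, 8.30, 8.26, and 8.56 at 4°C, 8.78, 8.80, and 9.06 at –10°C, and 10.07, 10.30, and 10.66 with –10°C/–20°C. It was lower at 4°C (−1.46, adjusted p = 0.00095) and higher with –10°C/–20°C than at 30°C by the test (0.51, adjusted p = 0.039), where the call was lost without any 30°C array, 4°C replicate 1, –10°C replicate 1 or 2, or –10°C/–20°C replicate 2 or 3 (adjusted p up to 0.14). Nfil3 read 6.86, 6.66, and 5.48 at –10°C, so that replicate 3, the low array of Cdkn1a, was low for Nfil3 too, at the level of the 4°C arrays (5.54, 5.51, and 5.53).

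**Figure D3:**
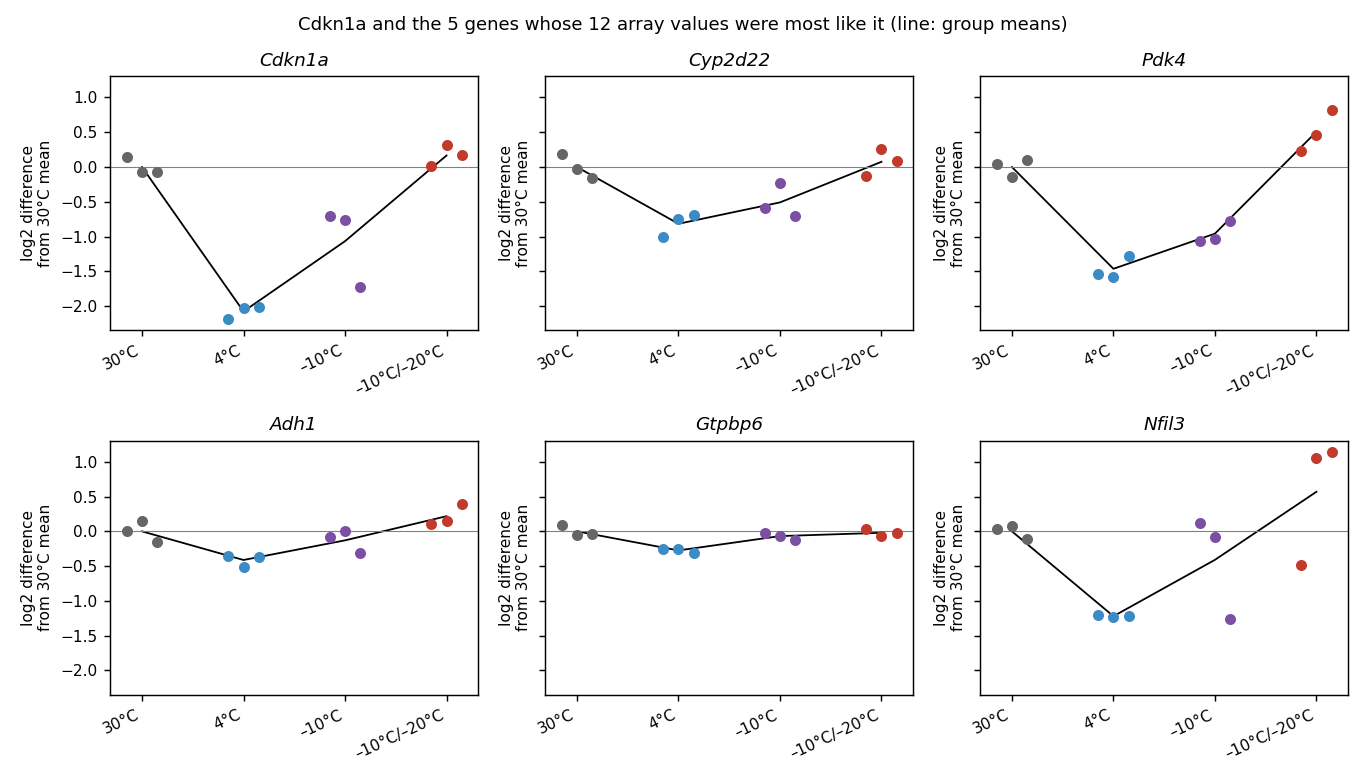
Difference of each array from the mean of the 30°C arrays, in log2 units, for Cdkn1a and the 5 genes most like it, with a line through the group means. Cdkn1a and Pdk4 had their lowest group mean at 4°C, and 1 of the –10°C arrays of Cdkn1a and of Nfil3, replicate 3 in both, lay apart from the other two.

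For the other members, Stradb, a subunit of the kinase complex that activates AMPK, ran most like Cdkn2c (r = 0.96), and Lrrc27 most like Ccnd3 (0.98). Ccnd2 ran with Aacs, which makes acetoacetyl-CoA for lipid synthesis (0.99), and with the fatty acid synthase gene Fasn (0.97). Fasn read 10.27, 9.85, and 10.84 at 30°C, and between 11.38 and 12.58 in the cold groups. Ccnd1 ran with its partner kinase gene Cdk6 (0.94). Both had their highest array in 4°C replicate 2 (9.19 and 8.08), and their group means had the same order, with that of 4°C the highest, then –10°C, 30°C, and –10°C/–20°C. Between members, Cdkn2c and Ccnd3 had r = 0.88 and Cdkn1a and Cdkn2c had −0.72, over the same 12 arrays and with no test.

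The partners and targets of these genes were read from lists of pathway genes. Over all genes, 3.04% passed against 30°C at 4°C, 8.34% at –10°C, and 18.2% with –10°C/–20°C, in either direction. Calls among the CDK and cyclin genes and the retinoblastoma and E2F genes were near this share in the coldest group. Their rise with cold is therefore not particular to these lists. Of 16 measured CDKs, other cyclins, and CDK phosphatases and kinases, 3 were lower and 0 higher with –10°C/–20°C than at 30°C (median log2 fold change −0.12, against −0.03 over all genes). Over all genes, 7.19% were higher and 11% lower in this comparison. Ccna2, the cyclin of DNA synthesis, read 4.92, 4.32, and 4.82 with –10°C/–20°C, against 5.48, 6.05, and 5.99 at 30°C, and was 2.22-fold lower (adjusted p = 0.00087). The mitotic cyclin gene Ccnb2 was also lower (−0.49, adjusted p = 0.037), and Cdk4, the kinase partner of D cyclins, was 1.30-fold lower (−0.38, adjusted p = 0.018). Cdk4 read 9.07, 8.90, and 8.80 with –10°C/–20°C, against 9.21, 9.33, and 9.38 at 30°C. Centring or repeated quantile normalization left 1 or 2 of the list lower and 2 higher, so its direction depended on the scaling. The Ccnb2 call was lost without any 30°C array, 4°C replicate 1, or –10°C/–20°C replicate 2 or 3 (adjusted p up to 0.12), and that of Cdk4 without 30°C replicate 2 or 3 or –10°C/–20°C replicate 2 or 3 (up to 0.076). In the warmer cold groups, 0 of 16 passed at 4°C in limma (2 at an unadjusted p under 0.05) and 1 at –10°C, Ccne1 (0.70, adjusted p = 0.049). The Ccne1 call was lost without any 30°C array, 4°C replicate 1 or 3, –10°C replicate 1 or 2, or –10°C/–20°C replicate 1 (adjusted p up to 0.18). For this and the following lists, where limma called 0 genes the methods' t-test with adjustment called 0 too.

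Of 11 measured retinoblastoma family and E2F genes, 2 were lower with –10°C/–20°C than at 30°C (median −0.20). In limma 0 passed at 4°C or –10°C, and 0 at an unadjusted p under 0.05. Rbl1, which encodes the pocket protein p107, read 5.40, 5.57, and 5.68 with –10°C/–20°C, against 6.10, 6.31, and 6.54 at 30°C (−0.77, adjusted p = 0.0035), and E2f1 was also lower (−0.63, adjusted p = 0.012). The E2f1 call was lost with repeated quantile normalization, with centring, and with only the arrays compared (adjusted p up to 0.2 over all alternatives). Of 11 genes for the turnover of cyclin D and p27, 3 were higher and 1 lower in this comparison (median 0.06). The largest rise was that of Fbxo31, an F-box protein for cyclin D1, at 9.01, 9.75, and 9.45 with –10°C/–20°C, against 7.39, 7.62, and 7.56 at 30°C (3.68-fold, adjusted p = 5.7e-05). Cryab, a small heat shock protein that also serves as an adaptor for cyclin D1 turnover, was 2.53-fold lower (adjusted p = 0.013, and 0.053 without 30°C replicate 1). The Cryab call was also lost with array-name form as a block and with the methods' t-test (adjusted p up to 0.16 over all alternatives). Ubac1 was higher in every cold group (0.78, 0.86, and 0.93 with falling temperature), though at 4°C the call was lost without 30°C replicate 1 or 2 or 4°C replicate 1 or 3 (adjusted p up to 0.13). Of the other genes listed as CDK inhibitors by their symbols, Cdkn2a read between 5.74 and 6.04 on all arrays. Of its differences, 0 passed in limma, also at an unadjusted p under 0.05. Cdkn3 lay below background on all 12 arrays and with –10°C/–20°C fell below its 4°C level (−0.42, adjusted p = 0.022), a call lost without 4°C replicate 1 or 2 or –10°C/–20°C replicate 2 (adjusted p up to 0.089).

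Genes of dividing cells were lower with –10°C/–20°C. Of 26 measured, 12 were lower and 0 higher than at 30°C (median −0.37, against −0.03 over all genes), where 11% of all genes were lower by the test. At 4°C and –10°C, 0 of 26 passed against 30°C in limma, with 0 at 4°C and 2 at –10°C at an unadjusted p under 0.05. Top2a, the topoisomerase of dividing cells, read 3.71, 3.38, and 3.80 with –10°C/–20°C, against 4.43, 4.93, and 5.00 at 30°C (adjusted p = 0.00084). These values straddle the background level of 4.52, and 17 of the 26 genes were above it on at least 3 arrays. Prc1 was above it on 2 arrays and Mki67 on 0, so their falls (adjusted p = 0.00016 and 0.047) were measured below background. The Mki67 call was lost without any 1 array other than –10°C/–20°C replicate 1 (adjusted p up to 0.17). Without –10°C/–20°C replicate 2 the count was 6, without 30°C replicate 2 it was 7, with arrays centred on their medians it was 6, with only the arrays compared 7, and with the methods' t-test 1.

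**Figure D4:**
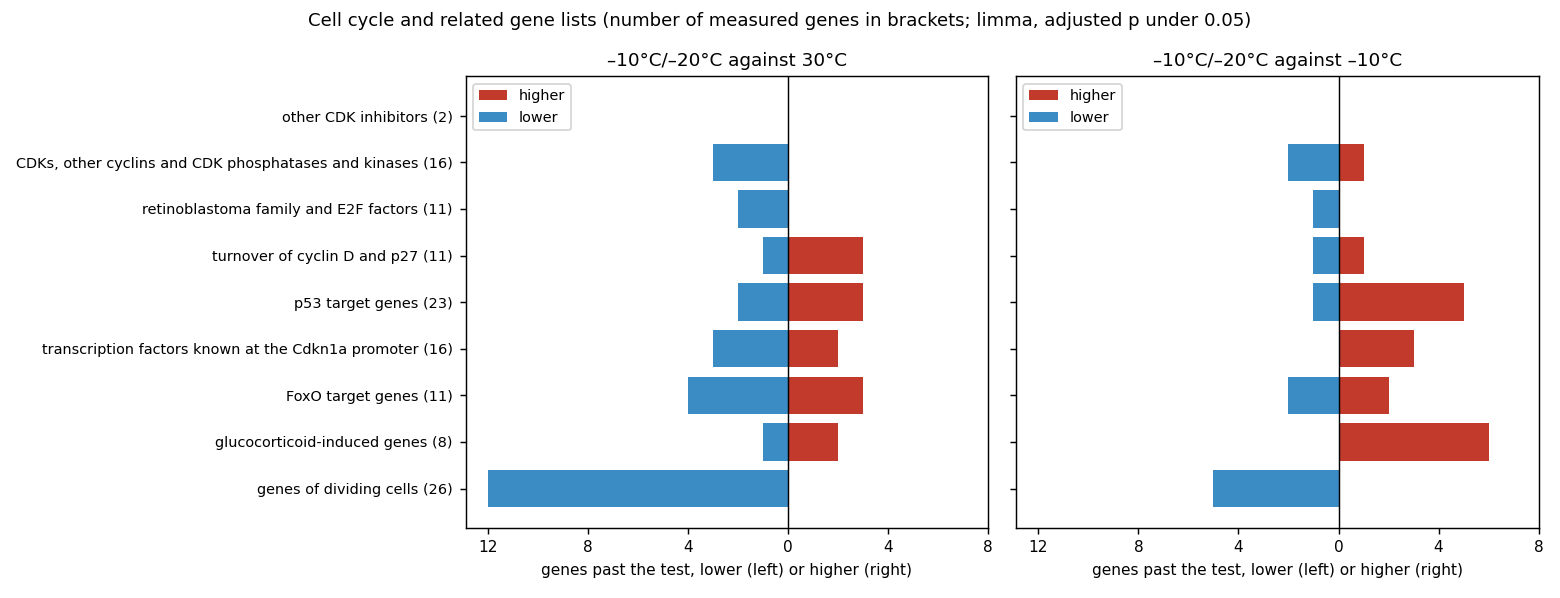
Number of genes in each list that passed the test (limma, adjusted p under 0.05), lower to the left and higher to the right, for –10°C/–20°C against 30°C and against –10°C, with the number measured in brackets. Against 30°C, 12 of 26 genes of dividing cells were lower, and against –10°C, 6 of 8 glucocorticoid-induced genes were higher.

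The lists tied to known regulators of Cdkn1a moved in both directions. Those for p53, FoxO factors, and glucocorticoids hold other targets of these regulators, and a further list holds transcription factors. The p53 gene itself, Trp53, was not among the genes tested. Of 23 p53 targets other than Cdkn1a, 3 were higher and 2 lower with –10°C/–20°C than at 30°C (median −0.05). Trp53inp1, a p53-induced protein of autophagy and cell death, read 10.09, 11.60, and 11.28 with –10°C/–20°C, against 7.99, 8.58, and 8.22 at 30°C, a 6.61-fold difference (adjusted p = 0.00031). Ddit4, an inhibitor of mTORC1 signalling, was 2.46-fold higher (adjusted p = 0.0072), and Plk3 was also higher (1.15, adjusted p = 0.0015). At 4°C, where Cdkn1a was lowest, 7 of the 23 had an unadjusted limma p under 0.05 against 30°C. After adjustment 1 passed, the stress-induced Sesn2, which was lower (−1.05, adjusted p = 0.048). That call was lost without any 30°C array, 4°C replicate 1 or 3, –10°C replicate 3, or any –10°C/–20°C array (adjusted p up to 0.2). Trp53inp1 differed from 30°C by −0.06 at 4°C (adjusted p = 0.99). The mean of Ddit4 was 7.33 at 4°C and 8.29 at 30°C, and that of Phlda3 was 9.30 and 8.40, with neither called. For –10°C against 30°C, 1 target was higher (Ccng1) and 2 were lower (Sesn2 and Ddit4), where 8.34% of all genes passed. In the comparisons where Cdkn1a was higher, 5 p53 targets were higher and 2 lower with –10°C/–20°C than at 4°C, where 2.53% of all genes were higher and 7.24% lower, and 5 were higher and 1 lower than at –10°C, where 2.02% were higher and 5.14% lower. The 5 were Trp53inp1, Sesn1, Sesn2, Plk3, and Ddit4 in both comparisons, which share the –10°C/–20°C arrays, and the list medians were −0.07 and −0.08. Sesn2 differed from 4°C by 0.995 (adjusted p = 0.027) and was 1 of the 15 genes called with the shape of Cdkn1a, but its difference from 4°C was lost without 4°C replicate 1 or 3 or any –10°C/–20°C array (adjusted p up to 0.11), and that from –10°C without –10°C replicate 1 or 3 or any –10°C/–20°C array (up to 0.086). The Plk3 call against 4°C was lost without 4°C replicate 1 or –10°C/–20°C replicate 3 (up to 0.054), and that of Sesn1 against –10°C without –10°C/–20°C replicate 2 (0.055).

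Of 16 transcription factors known at the Cdkn1a promoter, 2 were higher and 3 lower with –10°C/–20°C than at 30°C (median −0.09). Cebpb, a factor of adipocyte differentiation, was higher (0.95, adjusted p = 0.0054), and Runx1 (−0.89, adjusted p = 0.00036) and Myc, a repressor of Cdkn1a (−0.71, adjusted p = 0.044), were lower. The Myc call was lost without any 30°C array, 4°C replicate 1 or 2, –10°C replicate 3, or –10°C/–20°C replicate 1 or 3 (adjusted p up to 0.14), and with centring or all probe sets. In the coldest group, 3 of the 16 were higher and 1 lower than at 4°C, and 3 were higher and 0 lower than at –10°C, with Cebpb, Foxo1, and Foxo3 higher in both. Over all genes, 2.53% were higher and 7.24% lower against 4°C, and 2.02% and 5.14% against –10°C. Against 4°C the Cebpb call was lost without 4°C replicate 1 or 2 or –10°C/–20°C replicate 1 or 2 (adjusted p up to 0.097), and that of Foxo3 without 4°C replicate 1 or 3 or any –10°C/–20°C array (up to 0.12). At 4°C, 0 of the 16 passed against 30°C in limma (5 at an unadjusted p under 0.05), and at –10°C 4 were lower, where 3.03% of all genes were. Of 11 FoxO targets, 3 were higher and 1 lower with –10°C/–20°C than at 4°C, 2 higher and 2 lower than at –10°C, and 3 higher and 4 lower than at 30°C (median 0.18), including Sod2 (0.80, adjusted p = 0.0011), Sesn3 (−1.33, adjusted p = 4e-05), and Bcl6 (−1.62, adjusted p = 0.037). The Bcl6 call was lost without 30°C replicate 1 or 2, 4°C replicate 1, or any –10°C/–20°C array (adjusted p up to 0.14), and with centring, repeated quantile normalization, all probe sets, or array-name form as a block (up to 0.26 over all alternatives).

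Of 8 glucocorticoid-induced genes, 6 were higher with –10°C/–20°C than at –10°C, where 2.02% of all genes were higher, and 6 were lower at –10°C than at 30°C, where 3.03% of all genes were lower. In the coldest group, 4 were higher and 0 lower than at 4°C. At –10°C against 4°C, 0 of 8 passed in limma, with 5 at an unadjusted p under 0.05. The list median there was −0.53, against 0.016 over all genes, while Cdkn1a differed by 1.01 (limma adjusted p = 0.23). Fkbp5, Tsc22d3, Per1, Sgk1, Mt1, Mt2, and Errfi1 had their lowest group mean at –10°C, and Angptl4 and Cdkn1a at 4°C. Fkbp5, a chaperone of the glucocorticoid receptor, read 9.98, 10.63, and 10.52 with –10°C/–20°C, against 7.59, 8.10, and 8.34 at –10°C (2.37, adjusted p = 0.0004), and 8.22, 8.57, and 8.84 at 30°C. Errfi1, an inhibitor of the EGF receptor, exceeded its 30°C level with –10°C/–20°C (1.04, adjusted p = 0.017), and Angptl4, an inhibitor of lipoprotein lipase, was lower (−0.62, adjusted p = 0.015). At 4°C, 2 of the 8 were lower than at 30°C (0.942% of all genes), Mt2 and Angptl4, and the median of the list against 30°C was −0.41 at 4°C and −0.76 at –10°C. The Mt2 call was lost without any 30°C array, 4°C replicate 1 or 3, –10°C replicate 2, or any –10°C/–20°C array (adjusted p up to 0.21), and that of Angptl4 at 4°C without 30°C replicate 1 or 2 or 4°C replicate 1 or 2 (up to 0.11). In the coldest group the Errfi1 call was lost without 30°C replicate 1 or –10°C/–20°C replicate 2 (adjusted p up to 0.074), and that of Angptl4 without these or –10°C/–20°C replicate 3 (up to 0.065). The part of this list in the values of Cdkn1a was not tested.

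Markers of the cell types in a fat pad also differed between groups. Of 8 measured macrophage markers, 6 were lower with –10°C/–20°C than at 30°C, and their summed linear signal was 4070 to 4980 at 30°C, 3250 to 3380 at 4°C, 2340 to 2670 at –10°C, and 1900 to 2230 with –10°C/–20°C. Folr2 (−1.99, adjusted p = 6.8e-06) and Adgre1 (−1.53, adjusted p = 0.0026) fell most. Stromal progenitor markers were lower for 3 of 9 (Col3a1, −2.15, Col1a1, −2.08, and Lum), with sums of 6880 to 8120, against 9670 to 11900 at 30°C. Lymphocyte markers were lower for 3 of 7, including Cd3g (−1.37) and Cd4 (−1.25), mast cell markers for 4 of 5, including Cpa3 (−2.77) and Cma1 (−0.81), and mesothelial markers for 1 of 6, Wt1 (−0.43). Over all genes, 11% were lower in this comparison, and the mesothelial count was near that share. Cd3g read 4.37, 3.51, and 4.12 with –10°C/–20°C, below the background level of 4.52, so the size of its fall is uncertain. The Cpa3 call was lost without 30°C replicate 2 or 3 or –10°C/–20°C replicate 1 or 3 (adjusted p up to 0.085), and that of Wt1 without 30°C replicate 3 or –10°C/–20°C replicate 3 (up to 0.062) and with centring or repeated quantile normalization. The part of these shifts in the values of Cdkn1a, Cdkn2c, the D cyclins, and the genes of dividing cells was not tested.

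Adipocyte markers had a summed linear signal of 20800 to 25900 on the arrays. Of 7 measured, Pparg was higher (0.50, adjusted p = 0.044) and Lep lower (−6.48, adjusted p = 0.00034) with –10°C/–20°C than at 30°C. Over all genes, 18.2% passed in this comparison. Lep read 4.81, 3.94, and 4.16 with –10°C/–20°C, with replicates 2 and 3 below the background level of 4.52, so the size of its fall is uncertain. The Pparg call was lost without any 1 array other than 30°C replicate 3 and 4°C replicate 2 (adjusted p up to 0.16). Of 9 endothelial markers, Kdr was higher (0.72) and Cldn5 lower (−1.44). In limma, 0 of 5 smooth muscle and pericyte markers passed (0 at an unadjusted p under 0.05), with Acta2 at 0.15 and Rgs5 at −0.12. Of 4 skeletal muscle markers 0 passed (1 unadjusted), with Acta1 at −1.33 (adjusted p = 0.086) and Ckm at −0.08. Of 8 epididymis and testis markers, 5 were below background on all arrays, among them Lcn5, Lcn8, and Adam7. Prm1 (−0.04) and Prm2 (−0.03) did not pass, and –10°C replicates 2 and 3 had the highest sums (337 and 387). Cdkn1a read 7.86 on replicate 2 and 6.89 on replicate 3, the array on which it stood apart. The part of these markers in its values was not tested.

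Median log2 values of the arrays over all rows lay between 5.19 and 5.44, and each array had 10210 to 10541 genes over the background level. Centring each array on its median moved the median change over all genes in the coldest comparison with 30°C to 0.13, against −0.03 as deposited, and the share of higher among called genes to 65.5%, against 39.5%. Repeating the quantile normalization gave a share of 50%. For the coldest group against 4°C this share was 25.9% as deposited, 63.2% with centring, and 44.9% with the normalization repeated, and against –10°C it was 28.2%, 67.7%, and 50.3%. At 4°C against 30°C it was 69% as deposited and 56.7% with the normalization repeated.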

How the data were processed

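The measurements are of eWAT RNA in 4 temperature groups, each with 3 of the 12 arrays (Affymetrix Mouse Exon 1.0 ST). The deposited log2 values come from the authors' use of RMA (background correction, normalization between arrays, and summary of the probes of a gene) within Affymetrix Expression Console. The sources used here give no version of either. Values were used as deposited. RMA normalizes arrays to each other, so that a change shared by all genes would not be seen, and for arrays their number limits the precision.

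Of 23332 probe sets, 14996 carried 1 symbol, 1019 several, and 7317 none. The brightest row of each gene was kept, which left 14860 genes, 14805 of them in the RefSeq table. The background level of 4.52 was set at percentile 95 of gene means among 716 olfactory receptors. The model was limma 3.58.1 (R 4.3.3), with lmFit and then eBayes on the 4 groups together, two-sided, with Benjamini-Hochberg adjustment over all genes and an adjusted p under 0.05 as the threshold. The procedure was run on simulated data with independent noise and planted changes. Such data lack any correlation between arrays, so the run does not show how the procedure behaves where arrays are correlated. Python 3.11.15, pandas 2.3.3, numpy 2.4.6, and matplotlib 3.10.9 served for tables and plots.

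The members and lists were chosen with earlier results of these data known. All 8 members were named in every comparison. From each pathway list the rule named up to 3 genes, and from each cell type marker list up to 2, ranked by the size of their change in the coldest group against 30°C among genes past the test, or, where none passed, the 2 with the highest level. It also named the 5 genes most like Cdkn1a. Other genes were named after their values were seen.

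Alternatives were eBayes with a trend and robust fit, the methods' t-test with adjustment (one-way analysis of variance for the F-test), genes above background on at least 3 arrays, repeated quantile normalization, centring on medians, a fit on the 2 compared groups alone, use of all probe sets, array-name form or replicate number as a block, arrayWeights, and each array left out in turn. The form was read by matching the values of the study's supplementary table to the arrays, where 98.45% of 1739 entries were equal within 0.001. What the form stands for is not stated. The study's PCR, protein, and tissue sections were not used here.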

Additional observations from a re-analysis of the deposited data

How the results depend on the processing

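Under the methods' t-test with adjustment, the count of members past the test was 0 at 4°C against 30°C, 0 at –10°C against 30°C, 1 for –10°C/–20°C against 4°C, and 0 against –10°C, while unadjusted p-values under 0.05 gave 4, 5, 3, and 3. With only the arrays of the groups compared, the counts were 1, 3, and 1 in the first 3 of these comparisons. The count at –10°C relative to 30°C was 3 under repeated quantile normalization, centring, or all probe sets, and 1 with array-name form as a block. For –10°C/–20°C against 4°C it was 1 with centring and 1 with that block. Leaving out 1 array gave 1 to 3 members at 4°C and 2 to 5 at –10°C against 30°C, 0 to 1 at –10°C against 4°C, 1 to 2 for –10°C/–20°C against 4°C, and 2 to 4 against –10°C. For the coldest group compared with 30°C, the count was 1 in every setting run. Over all genes, the calls against 30°C numbered 452 at 4°C, 1239 at –10°C, and 2707 in the coldest group. They were 0, 19, and 593 under the methods' t-test, 1873, 2597, and 4074 with arrayWeights, 314 at –10°C and 1585 in the coldest group with array-name form as a block, and 94 and 252 at 4°C with only the arrays compared or all probe sets. The coldest group had 1452 calls against 4°C and 1064 against –10°C, which were 88 and 4 under the methods' t-test, 874 and 658 with only the arrays compared, and 2474 and 2006 with arrayWeights, and 705 against 4°C with array-name form as a block. At –10°C against 4°C, 6 genes were called and between 0 and 49 in the alternatives. The F-test called 2537 genes, 4542 with arrayWeights, and 1501 with the block. Without 1 array, calls were 129 to 581 at 4°C, 696 to 1374 at –10°C, and 1994 to 2796 in the coldest group, and 829 to 1507 and 392 to 1126 for the coldest group against 4°C and –10°C. Same-numbered arrays were not taken as pairs, since no source ties them and not every pair had a correlation of deviations above 0.1. It was above 0.1 in 11 of 18 pairs with the same number (−0.386 to 0.54, median 0.2) and in 12 of 36 with different numbers (median −0.158), and 8 of 12 arrays correlated best with their own number, a hint from the data and not from the design. The replicate block gave 3, 5, and 1 members against 30°C in the order of falling temperature, 0 at –10°C against 4°C, 2 for –10°C/–20°C against 4°C, and 4 against –10°C, with Ccnd3 gained in the last. Of the genes named outside the members with a call for the coldest group against 30°C, Fbxo31, Cebpb, Runx1, Sesn3, Prc1, Folr2, Lum, Lep, and Kdr also passed the methods' t-test with adjustment. In that comparison the calls of Ccnb2, Cdk4, Cryab, Ddit4, Bcl6, Errfi1, and Angptl4 were lost with array-name form as a block. So were those of Mki67, Cd3g, Cd4, Cpa3, Pparg, and Pdk4. Signs turned only for members and Cdkn2a values that had not passed the test. Under arrayWeights, Cdkn2b at 4°C against 30°C was 0.17, and Ccnd1 was −0.14 at 4°C and −0.11 at –10°C against 30°C and 0.026 at –10°C against 4°C. Under repeated quantile normalization Ccnd1 was −0.010 at –10°C against 30°C. For –10°C/–20°C against 4°C, Cdkn1b was 0.0066 and Cdkn1c 0.077 under that normalization, 0.069 and 0.13 with centring, and Cdkn1b 0.010 with arrayWeights. With centring, Cdkn1b was 0.011 against 30°C and 0.033 against –10°C in the coldest group. With array-name form as a block, Cdkn2a was −0.00833 for –10°C/–20°C against 30°C, and at –10°C against 4°C Cdkn1b was −0.0153 and Ccnd2 −0.057. Leaving out 1 array, Cdkn1b ranged from −0.12 to 0.064 at 4°C and −0.062 to 0.033 at –10°C against 30°C, and −0.067 to 0.11 at –10°C against 4°C. Cdkn2b ranged from −0.12 to 0.053 at 4°C against 30°C, Ccnd1 from −0.26 to 0.39 at –10°C against 30°C and −0.68 to 0.028 against 4°C, and Ccnd2 from −0.043 to 0.19 at –10°C against 4°C. In the coldest group against 30°C, Ccnd3 ranged from −0.075 to 0.18 and Cdkn2a from −0.020 to 0.11. Genes close to background, such as Top2a and Prc1, are compressed in their differences, and 3 arrays a group limit the precision throughout.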
